A study of Mus musculus with 12 samples.

Results

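The 39 genes described here encode the transporters and enzymes that carry glucose to lactate, the subunits and oxygen sensors of the hypoxia-inducible factor (HIF), and well-known targets of that factor. They were chosen by symbol for these roles and were found through their Ensembl identifiers in a table of 54232 mouse genes. All 39 had enough counts to be among the 14924 genes tested.

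Glycolysis turns glucose into pyruvate, and a cell that does not burn the pyruvate in its mitochondria reduces it to lactate and exports it. When oxygen is short, the prolyl hydroxylases that mark HIF alpha subunits for destruction slow down, and the stabilized factor raises glucose transporters, most glycolytic enzymes, lactate export, and genes of vessel growth, acid handling and mitochondrial removal. Tumor cells are known for a high glycolytic flux, and solid tumors for regions of low oxygen.

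RNA-seq was performed on B16F10 cells, a mouse melanoma line of C57BL/6 origin, in 12 libraries of 4 groups with 3 libraries each. WT was untreated B16F10 grown in culture. The relapsed lines ITF1, ITM and Rel came from B16F10 tumors that had recurred in mice after immunotherapy, were sorted, and were grown to confluency in culture before RNA extraction, so each library stands for 1 line. Tumor 1, 3 and 4 were B16F10 cells sorted from such recurrent tumors and lysed at once. Lyso was cultured B16F10 incubated with lysosomes of T cells, which the study calls secreted granules, for 48 h by the labels and for a shorter time by the study's methods. Its cells sat on low-adherence plates coated with poly-L-lysine, a surface not described for WT. The labels give an age of 6 weeks for every sample, cultured ones included, and the study's methods give an older range for its mice. The labels do not say whether replicates came from separate cultures or animals, so that p-values measure the spread between these libraries.

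Counts on genes ran from 1667398 to 2350129 in WT 1 and WT 2, and reached 16384021 in WT 3. The relapsed lines held 12749399 to 16402629, Lyso 10895611 to 12675277 and Tumor 3102442 to 5049496. Levels are given as CPM, the usual depth-scaled counts, after TMM scaling, on which 3 counts amount to 1.696 CPM in the shallowest library, WT 1, but 0.177 CPM in WT 3 (counting error only). Each difference is a log2 fold change with its standard error, and a call means an adjusted p (Benjamini-Hochberg, over all genes tested) under 0.05 in edgeR's quasi-likelihood test. A pair of libraries stood apart from their groups in these genes and are named wherever a result rests on them: ITF1 among the relapsed lines, and WT 1, which held 11.1 times the mean Vegfa level of WT 2 and WT 3. For WT 1 this concerned few of the genes: 5 of the 39 (12.8%) were at least 2 times the mean of WT 2 and WT 3, against 8.84% of all tested genes, and WT 1 was the highest WT library for 18, against 41.1%. All 10 melanocyte markers were above 3 counts in every library, with sums between 19780 and 37380 CPM. The 10 fibroblast markers summed to 7695 to 10690 CPM in Tumor and to 15.1 to 39.4 CPM in the 9 cultured libraries. Immediate-early genes, which cell dissociation can raise, summed to 3945 to 4835 CPM in Tumor and to 262 to 604 CPM in culture. Myeloid markers (10 genes) summed to 51.6 to 76.4 CPM and endothelial markers (8 genes) to 54.3 to 59.7 CPM in Tumor, against at most 47.5 and 33.6 CPM in culture. In Tumor, T cell, erythroid, adipocyte and keratinocyte sums stayed below 10 CPM, with Cd3e, Cd3d and Gzma at 0, and muscle markers reached 13.3 CPM. The part of these other cells in the results below was not tested, and in bulk samples fewer cells of a type and less RNA per cell cannot be told apart.

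HIF binds DNA at a short core, ACGTG or GCGTG, near the start of its targets. RefSeq promoter windows of GRCm38.p6, which hold 250 bases before and 50 after each start site, were found for 35 of the 39 genes and not for Ndrg1, Epas1, Bnip3l and Slc2a3. Either core, on either strand, was in the windows of 32 of the 35 genes (91.4%), against 46.7% of 27025 genes with a window. A gene can have several windows, and by window the shares were 77.8% of 54 against 43.8% of 32851. The first transcribed bases were found in a transcript of the gene for 44 of the 54 windows, and all 54 were kept in the counts here and below. The windows of the 39 genes were also richer in G and C, with a median of 62.2% against 52.7%, and the part of base composition in that excess was not tested. The stretches below show the core in capitals, read 5′ to 3′ on the strand that carries it, for 5 of the genes with the largest rises in tumor cells, for the glucose transporter Slc2a1 and the hexokinase Hk2, and for 2 genes that did not pass the test. Stretches were printed only where the first transcribed bases of the window were found in a transcript of the gene.

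Car9 (chr4:43506995-43507024, minus strand): tggacgggctgtACGTGcatcggaaatagg
Slc16a3 (chr11:120949041-120949070, plus strand): cgtgcgcgggggACGTGccgcgcgacggat
Bnip3 (chr7:138909524-138909553, minus strand): ggctccgccgccGCGTGcgtcccgccccgc
Ankrd37 (chr8:45999839-45999868, minus strand): cagtgtttgggtACGTGaggccgcagcggg
Pdk1 (chr2:71873134-71873163, plus strand): ccgcctacatggGCGTGtctttaaccaggg
Slc2a1 (chr4:119108697-119108726, plus strand): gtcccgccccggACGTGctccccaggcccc
Hk2 (chr6:82774490-82774519, plus strand): ccccggacagtgACGTGgatgtgctcattg
Pgk1 (chrX:106186956-106186985, minus strand): gagactagtgagACGTGctacttccatttg
Pfkfb3 (chr2:11502125-11502154, minus strand): acccttctctccACGTGaaagggggctggg

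The cores printed lay within 78 bases before the start site for all of them but Pgk1, at 131 bases. A core before the start site was present in 20 of the 22 genes with a window that rose in tumor cells, and in 12 of the 13 that did not, so its presence did not separate the genes that rose. Gpi1, Tpi1 and Eno2 held no core in these windows, and Gpi1 and Tpi1 rose all the same. A match of 5 bases is a description and not evidence of binding.

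The first question was how cells taken straight from recurrent tumors differ from cultured B16F10. In Tumor, 24 of the 39 genes (61.5%) were higher than in WT, where 12.1% of all tested genes were, and 0 were lower, where 6.94% of all were. The largest rises were in Car9, the membrane carbonic anhydrase that acidifies the surroundings of hypoxic cells (35.8-fold), in Slc16a3, the lactate exporter MCT4 (15.2-fold), and in Bnip3, a receptor for removal of mitochondria (11.9-fold). By role, 3 of 4 genes of glucose entry, 6 of 7 of upper glycolysis, 1 of 6 of lower glycolysis, 2 of 3 of pyruvate and lactate handling, 2 of 4 HIF subunits and hydroxylases, and 10 of 13 further hypoxia targets rose, while neither fructose-2,6-bisphosphate enzyme did. The median log2 difference of the 39 genes was 1.18, against 0.0014 over all genes tested. At an unadjusted p under 0.05 there were 31 higher and 1 lower, against 32.1% of all tested genes in either direction, and DESeq2 called 26 higher and 1, Eno2, lower. In edgeR's test 1 gene was called lower when ITF1, ITM or Rel was left out.

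Every Tumor library lay above every WT library for 31 of the 39 genes, against 21% of all tested genes, and below for 2, Slc2a3 and Eno2, against 15.1%. Of the 24, 9 were called in all 24 fits and settings run: Car9, Gpi1, Hilpda, Hk1, Hk2, Kdm3a, Ndrg1, Pfkp and Slc2a1. Without WT 3, the deepest WT library, the count was 15, with Eno1, Tpi1, Aldoa, Aldoc, Bnip3, Ankrd37, P4ha2, Slc16a3 and Mxi1 lost, and it was also 15 with WT 3 as the only WT library. Leaving out WT 2 lost Aldoa, Eno1, Mxi1, P4ha2 and Slc16a3, leaving out Tumor 3 lost these and Tpi1, and leaving out Tumor 4 lost Aldoa, Eno1, Mxi1, P4ha2 and Tpi1. P4ha2 was also lost without Tumor 1 or any 1 Lyso library. It was 31 without ITF1, which is in neither group but adds to the spread that the fit estimates.

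**Figure D1:**
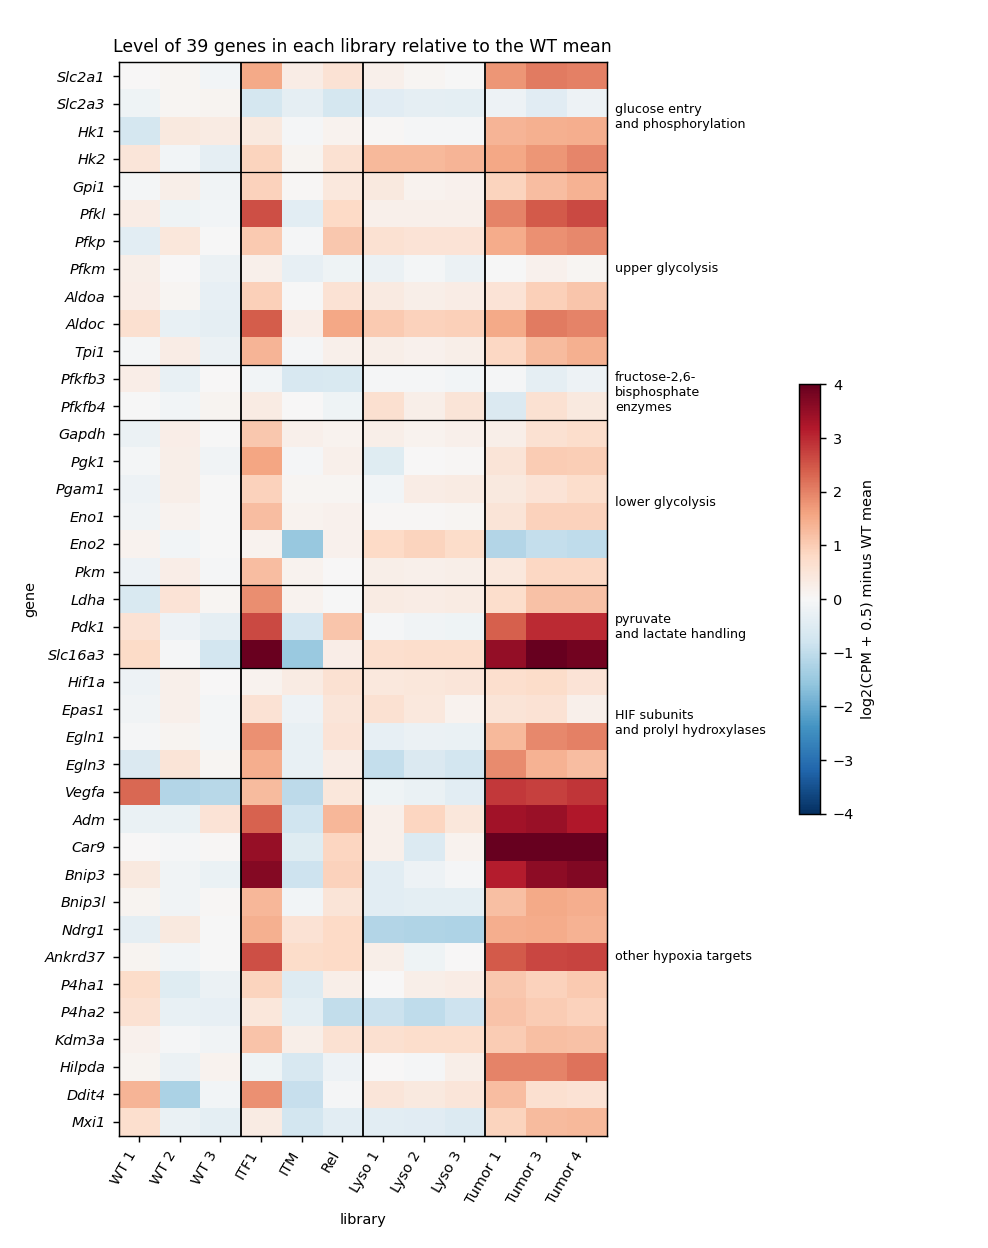
Levels of the 39 genes (rows, by role) in the 12 libraries (columns), as log2(CPM + 0.5) minus the mean of the 3 WT libraries, red above and blue below, with values past 4 in the end colour. The Tumor columns are red for most genes, the ITF1 column resembles them, and Vegfa is high in WT 1.

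**Figure D2:**
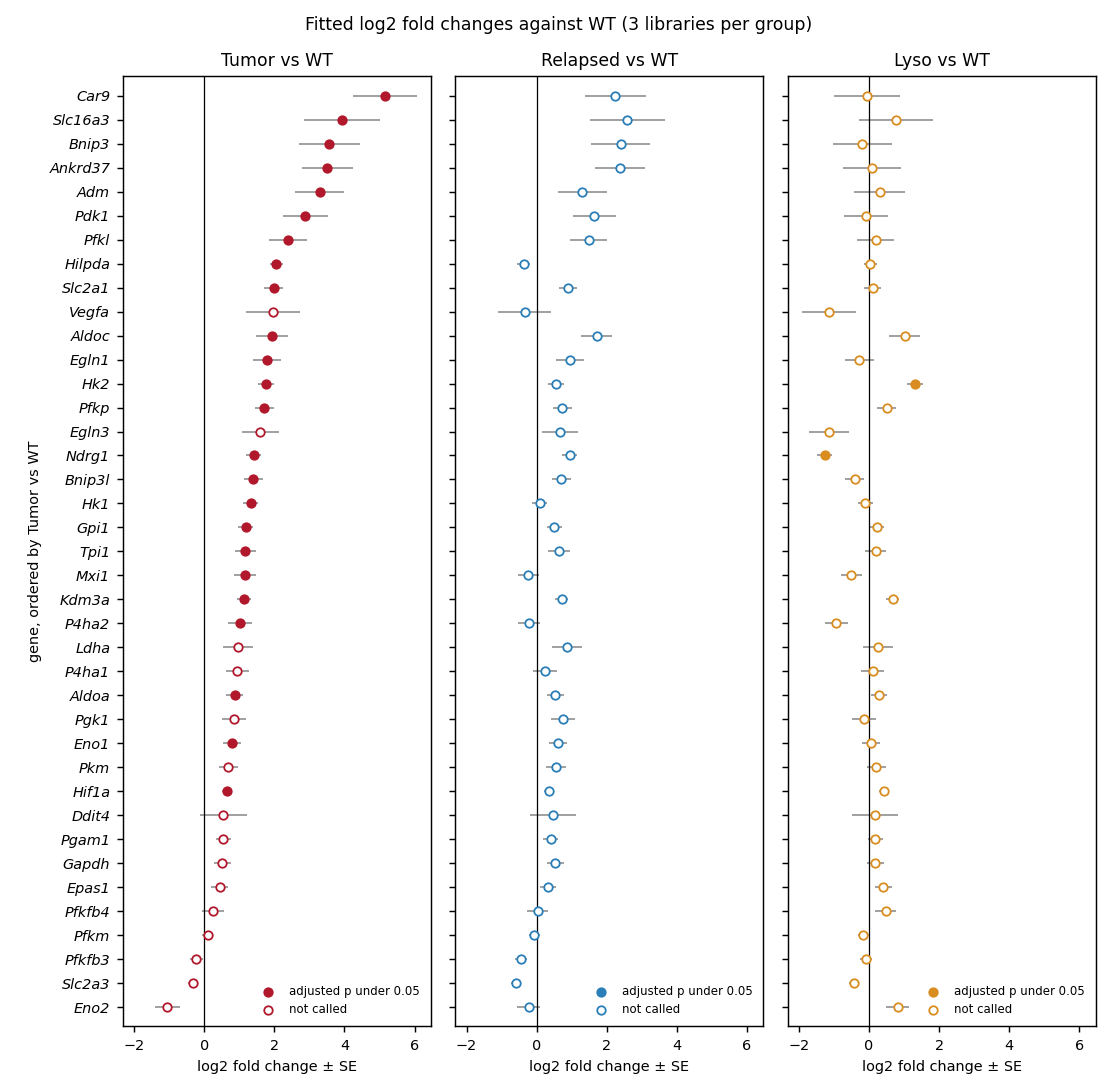
Fitted log2 fold changes against WT (x axis) with their SE for the 39 genes (y axis, ordered by Tumor against WT), for Tumor, the relapsed lines and Lyso. Filled points passed the adjusted p of 0.05, which was the case for 24 genes in Tumor, 0 in the relapsed lines and 2 in Lyso.

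Glucose enters the cell through the transporters Slc2a1 (GLUT1) and Slc2a3 (GLUT3) and is trapped by hexokinases. Slc2a1, on chromosome 4 (119108711 to 119137983, GRCm38), stood at 54.3, 56.9 and 49.5 CPM in WT, 153 in ITF1, 65.2 in ITM and 80.8 in Rel, 61.6, 56.7 and 52.9 in Lyso, and 183, 226 and 219.5 in Tumor. Every Tumor library exceeded every cultured one, and ITF1 was the highest of the cultured libraries. The level was 3.94-fold that of WT (log2 difference 1.98 ± 0.26 (SE), adjusted p = 0.00021) and 2.11-fold that of the relapsed lines (adjusted p = 0.0074). Slc2a3 did not follow: it ranged from 26.7 to 32.5 CPM in Tumor and from 32.8 to 40.2 CPM in WT (log2 difference -0.31 ± 0.15 (SE), adjusted p = 0.16).

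Hk1, the hexokinase of most tissues, stood at 75.7, 159.8 and 154 CPM in WT, 160.4 in ITF1, 120 in ITM and 136 in Rel, 128, 119.6 and 118 in Lyso, and 319.7, 334 and 336 in Tumor. The Tumor libraries were again above all 9 others, 2.52-fold over WT (log2 difference 1.33 ± 0.22 (SE), adjusted p = 0.00099) and 2.38-fold over the relapsed lines (adjusted p = 0.0011). Hk2, the inducible hexokinase of muscle and tumors, stood at 104, 68.3 and 58 CPM in WT, 137 in ITF1, 80.7 in ITM and 113 in Rel, 184, 184 and 189.7 in Lyso, and 218, 257 and 290 in Tumor. Here Tumor was highest, Lyso came next with 3 close libraries, and WT and the relapsed lines overlapped below them. Hk2 rose 3.38-fold in Tumor (log2 difference 1.76 ± 0.23 (SE), adjusted p = 0.0002) and 2.47-fold in Lyso (log2 difference 1.30 ± 0.22 (SE), adjusted p = 0.0051) against WT. Tumor and Lyso did not differ by the test although their libraries did not overlap (log2 difference 0.46 ± 0.21 (SE), adjusted p = 0.14).

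Upper glycolysis, from glucose 6-phosphate to triose phosphates, rose in Tumor in 6 of its 7 genes. Pfkl, the liver-type phosphofructokinase of the committing step, stood at 96.1, 68.7 and 71.3 CPM in WT, 462 in ITF1, 57.9 in ITM and 134 in Rel, 89.6, 88.8 and 89.3 in Lyso, and 309.7, 428 and 484 in Tumor. ITF1 lay between Tumor 3 and Tumor 4, while ITM was below WT. The rise over WT was 5.22-fold (log2 difference 2.38 ± 0.55 (SE), adjusted p = 0.0087). Pfkp, the platelet-type enzyme of the same step, stood at 67.3, 122 and 88.3 CPM in WT, 186 in ITF1, 86.5 in ITM and 189.7 in Rel, 136, 130.5 and 130.4 in Lyso, and 253, 318 and 342 in Tumor. It was higher in every Tumor library than in all others, 3.28-fold over WT (log2 difference 1.72 ± 0.28 (SE), adjusted p = 0.00097) and 1.98-fold over the relapsed lines (adjusted p = 0.02). Pfkm, the muscle type, kept to 40.2 to 45.6 CPM in Tumor, a range within that of WT (34.4 to 48.04 CPM) (log2 difference 0.10 ± 0.17 (SE), adjusted p = 0.74).

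Gpi1, which turns glucose 6-phosphate into fructose 6-phosphate, stood at 517, 632 and 488 CPM in WT, 1034 in ITF1, 557 in ITM and 722 in Rel, 704, 597 and 612 in Lyso, and 1010, 1265 and 1429 in Tumor. Tumor exceeded WT 2.27-fold (log2 difference 1.18 ± 0.21 (SE), adjusted p = 0.0021) and the relapsed lines 1.601-fold (adjusted p = 0.039), though ITF1 overlapped with Tumor. Aldoa, the main aldolase, stood at 1737, 1522 and 1155 CPM in WT, 2806 in ITF1, 1450 in ITM and 2146 in Rel, 1860, 1725 and 1764 in Lyso, and 2133, 2799 and 3103 in Tumor. Its Tumor libraries were above WT (1.82-fold, log2 difference 0.87 ± 0.24 (SE), adjusted p = 0.022) and overlapped with ITF1. The brain-type aldolase Aldoc was far lower, at 31.6, 16.4 and 15.7 CPM in WT, 111 in ITF1, 24.5 in ITM and 60.4 in Rel, 42.2, 38.4 and 39.8 in Lyso, and 58.1, 87.6 and 82.03 in Tumor. Tumor was 3.83-fold above WT (log2 difference 1.94 ± 0.46 (SE), adjusted p = 0.0099), and ITF1 exceeded every Tumor library. Tpi1, which interconverts the triose phosphates, stood at 669, 869.8 and 605 CPM in WT, 1829 in ITF1, 684 in ITM and 811 in Rel, 826, 797 and 824 in Lyso, and 1257, 1709 and 1880 in Tumor. ITF1 again fell within the Tumor range, and Tumor was 2.26-fold above WT (log2 difference 1.18 ± 0.31 (SE), adjusted p = 0.018).

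Pfkfb3 and Pfkfb4 make fructose 2,6-bisphosphate, the activator of phosphofructokinase, and neither was called in any comparison. Pfkfb3 ranged from 31.4 to 39.6 CPM in Tumor and from 33.3 to 49.2 CPM in WT (log2 difference -0.22 ± 0.18 (SE), adjusted p = 0.44). Pfkfb4 ranged from 2.92 to 7.24 CPM in Tumor and from 4.22 to 5.005 CPM in WT (log2 difference 0.25 ± 0.32 (SE), adjusted p = 0.64). The core of Pfkfb3 printed above thus belongs to a gene with overlapping groups.

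Lower glycolysis, from glyceraldehyde 3-phosphate to pyruvate, moved less. Eno1, the ubiquitous enolase, was the 1 called gene of 6, at 901, 1089 and 982 CPM in WT, 2313 in ITF1, 1090 in ITM and 1109 in Rel, 1023, 1023 and 1048 in Lyso, and 1425, 1877 and 1872 in Tumor. Tumor exceeded WT 1.74-fold (log2 difference 0.80 ± 0.25 (SE), adjusted p = 0.042), and ITF1 exceeded Tumor. That call was lost when any 1 of WT 1, WT 2, WT 3, Tumor 3, Tumor 4 or the Lyso libraries was left out. Pgk1, Pgam1 and Pkm, a kinase, a mutase and the pyruvate kinase, had Tumor libraries wholly above WT with log2 differences of 0.85 ± 0.34, 0.55 ± 0.22 and 0.69 ± 0.28 and adjusted p of 0.11, 0.11 and 0.11. Gapdh ranged from 1508 to 2097 CPM in Tumor and overlapped with WT (1082 to 1546 CPM). Its counts are uncertain, since 79 other genes, 76 of them pseudogenes, hold near-identical sequence and took 8.07% of the summed counts.

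Eno2, the neuronal enolase, went the other way. It ranged from 13.96 to 16.3 CPM in Tumor, from 29.5 to 35.04 CPM in WT and from 54.1 to 59.8 CPM in Lyso. The Tumor libraries lay below all of WT and Lyso, with a difference from Lyso that passed the test (log2 difference -1.88 ± 0.34 (SE), adjusted p = 0.0016) and one from WT that did not (log2 difference -1.06 ± 0.36 (SE), adjusted p = 0.055). Among the relapsed lines ITM fell below Tumor, at 11.01 CPM, and ITF1 and Rel stood at 35.7 and 35.8 CPM.

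Pyruvate and lactate are handled by Ldha, Pdk1 and Slc16a3. Ldha, the lactate dehydrogenase subunit that makes lactate, stood at 724, 1625 and 1159 CPM in WT, 4036 in ITF1, 1223 in ITM and 1089 in Rel, 1397, 1374 and 1400 in Lyso, and 1800, 2484 and 2511 in Tumor. Tumor lay above WT in every library, yet ITF1 was higher still and WT itself ranged widely. The difference of Tumor from WT did not pass the test (log2 difference 0.95 ± 0.43 (SE), adjusted p = 0.14), and was called without ITF1 (adjusted p = 0.014).

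Pdk1, a kinase that holds back the burning of pyruvate in the mitochondria, stood at 28.3, 16.4 and 14.5 CPM in WT, 121 in ITF1, 11.8 in ITM and 41.1 in Rel, 18.1, 17.02 and 16.7 in Lyso, and 101, 153 and 154 in Tumor. Tumor and ITF1 shared a high level, Rel was intermediate and the other libraries were low, with a 7.41-fold rise in Tumor over WT (log2 difference 2.89 ± 0.64 (SE), adjusted p = 0.007). Slc16a3, on chromosome 11 (120948480 to 120960868), stood at 26, 14.3 and 8.83 CPM in WT, 237 in ITF1, 5.03 in ITM and 17.9 in Rel, 24.01, 24.6 and 24.5 in Lyso, and 177, 256 and 223 in Tumor. ITF1 was as high as Tumor, and ITM was the lowest library of all. The rise over WT was 15.2-fold (log2 difference 3.93 ± 1.09 (SE), adjusted p = 0.024), while the difference from the relapsed lines did not pass the test (log2 difference 1.34 ± 0.90 (SE), adjusted p = 0.33).

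HIF itself is a dimer whose alpha subunit, Hif1a or Epas1, is controlled mainly at the protein level, which RNA counts do not show. Hif1a, on chromosome 12, stood at 222, 294 and 262 CPM in WT, 285 in ITF1, 327 in ITM and 389 in Rel, 346, 349.6 and 359.7 in Lyso, and 409, 434 and 378 in Tumor. Tumor exceeded WT 1.57-fold (log2 difference 0.65 ± 0.14 (SE), adjusted p = 0.0064), and Lyso lay between them with a difference from WT that did not pass (log2 difference 0.44 ± 0.14 (SE), adjusted p = 0.1). Epas1, which encodes HIF-2 alpha, stood at 15.3, 19.8 and 16.1 CPM in WT, 25.8 in ITF1, 14.5 in ITM and 23.9 in Rel, 26.2, 22.9 and 18.8 in Lyso, and 24.3, 25.5 and 19.5 in Tumor. Its groups overlapped (log2 difference 0.44 ± 0.24 (SE), adjusted p = 0.22 for Tumor against WT).

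The prolyl hydroxylases Egln1 and Egln3 mark HIF alpha for destruction and are themselves HIF targets. Egln1 stood at 54.8, 61.98 and 54.2 CPM in WT, 204 in ITF1, 45.95 in ITM and 82.8 in Rel, 45.5, 48.1 and 47.5 in Lyso, and 139.6, 217 and 233 in Tumor. Tumor and ITF1 formed the high end, at 3.47 times WT for Tumor (log2 difference 1.79 ± 0.41 (SE), adjusted p = 0.0085). Egln3 was scarce, with 2 and 7 counts in WT 1 and WT 2, and ranged from 5.17 to 8.44 CPM in Tumor, 1.13 to 2.95 CPM in WT and 0.753 to 1.12 CPM in Lyso. The rise in Tumor passed against Lyso (log2 difference 2.74 ± 0.51 (SE), adjusted p = 0.0019) and narrowly missed against WT (log2 difference 1.61 ± 0.53 (SE), adjusted p = 0.052).

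Of the further hypoxia targets, Car9 was the most changed. Located on chromosome 4 (43506966 to 43513729), it stood at 5.65, 5.48 and 5.77 CPM in WT, 67.5 in ITF1, 3.89 in ITM and 10.6 in Rel, 6.496, 3.72 and 6.23 in Lyso, and 118, 238 and 254 in Tumor. Every Tumor library exceeded ITF1, and ITF1 exceeded all other cultured libraries. The log2 difference was 5.16 ± 0.91 from WT (adjusted p = 0.0017) and 2.91 ± 0.72 from the relapsed lines (adjusted p = 0.013). Gm12454, a gene on the opposite strand, shares 9.29% of its exonic bases, and without a known strand setting their reads cannot be told apart.

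Adm, the vasodilator peptide adrenomedullin, stood at 1.696, 1.69 and 3.36 CPM in WT, 13.2 in ITF1, 1.02 in ITM and 6.15 in Rel, 2.54, 4.28 and 3.15 in Lyso, and 26.9, 28.7 and 23.97 in Tumor. Tumor was above all others, by 9.796-fold over WT (log2 difference 3.29 ± 0.69 (SE), adjusted p = 0.0052) and 3.96-fold over the relapsed lines (adjusted p = 0.028), although WT 1 and WT 2 held only 3 and 4 counts. Hilpda, a lipid droplet protein, stood at 11.9, 9.28 and 12.4 CPM in WT, 9.81 in ITF1, 7 in ITM and 9.63 in Rel, 11.2, 10.6 and 13.3 in Lyso, and 45.8, 45.2 and 51.2 in Tumor. Here the cultured libraries, ITF1 included, shared a low level and Tumor alone was high. The log2 difference of 2.06 ± 0.19 from WT had the smallest adjusted p of the 39 genes (9.4e-06), and that from the relapsed lines was 2.43 ± 0.17 (adjusted p = 8.3e-07).

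Vegfa, the main growth factor of blood vessels, stood at 197, 17.3 and 18.1 CPM in WT, 96.2 in ITF1, 18.96 in ITM and 55.1 in Rel, 35.2, 32.9 and 29.6 in Lyso, and 284, 265 and 290.3 in Tumor. Tumor was above all other libraries, but WT 1 was far above WT 2 and WT 3. With all 3 WT libraries the rise did not pass (log2 difference 1.96 ± 0.78 (SE), adjusted p = 0.099). Without WT 1 the log2 difference was 3.97 (adjusted p = 0.00030). With WT 1 kept, the rise was called in edgeR without a filter on low counts (log2 difference 1.93, adjusted p = 4.7e-06). It was not called with WT 1 kept by DESeq2 (adjusted p = 0.14), nor in edgeR with only the compared groups (0.163) or without ITF1 (0.0749). Against the relapsed lines Vegfa was 4.95-fold higher (adjusted p = 0.049, and 0.11 without ITM), and against Lyso 8.59-fold (adjusted p = 0.012).

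Bnip3 stood at 23.7, 16.4 and 14.9 CPM in WT, 234 in ITF1, 9.81 in ITM and 34.7 in Rel, 13.4, 15.4 and 17.2 in Lyso, and 163, 220.1 and 241 in Tumor. Its Tumor range included ITF1, and ITM was the lowest library. The rise over WT was 11.9-fold (log2 difference 3.57 ± 0.87 (SE), adjusted p = 0.012), and a gene on the opposite strand shares 22.3% of its exonic bases. The related Bnip3l, which also marks mitochondria for removal, stood at 53.1, 44.7 and 50.8 CPM in WT, 125 in ITF1, 46.1 in ITM and 71.6 in Rel, 36.6, 37.7 and 37.6 in Lyso, and 114, 141 and 136 in Tumor. Tumor exceeded WT 2.64-fold (log2 difference 1.40 ± 0.27 (SE), adjusted p = 0.0034), and all 3 Lyso libraries lay below all others (Lyso against WT log2 difference -0.41 ± 0.27 (SE), adjusted p = 0.47).

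Ndrg1, a stress-induced protein and common hypoxia marker, stood at 49.7, 85.2 and 63.1 CPM in WT, 173 in ITF1, 96.1 in ITM and 113 in Rel, 28.1, 27.5 and 26.9 in Lyso, and 178, 179 and 169.7 in Tumor. Tumor and ITF1 were high, ITM and Rel intermediate, WT lower, and the 3 Lyso libraries lowest and nearly equal. Ndrg1 rose 2.66-fold in Tumor (log2 difference 1.41 ± 0.21 (SE), adjusted p = 0.00065) and fell in Lyso, to a level 2.403-fold below WT (log2 difference -1.26 ± 0.22 (SE), adjusted p = 0.0051). Tumor and Lyso differed 6.38-fold (log2 difference 2.67 ± 0.22 (SE), adjusted p = 3.2e-06).

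Ankrd37, a small ankyrin repeat protein, was the scarcest of the set, with 1, 1 and 8 counts in WT and 15, 29 and 25 in Tumor. In CPM these were 0.565, 0.422 and 0.471 for WT and 4.87, 5.83 and 5.88 for Tumor, beside 5.37 in ITF1, 1.14 in ITM and 1.203 in Rel and 0.659, 0.372 and 0.485 in Lyso. The fitted log2 difference of 3.51 ± 0.73 (adjusted p = 0.0046) therefore rests on few counts, and 26.4% of its exonic bases are shared with genes on the other strand.

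Kdm3a, a histone demethylase, stood at 124, 106 and 99.8 CPM in WT, 243 in ITF1, 129 in ITM and 165 in Rel, 169, 177 and 178 in Lyso, and 222, 250 and 249.6 in Tumor. Tumor exceeded WT 2.202-fold (log2 difference 1.14 ± 0.19 (SE), adjusted p = 0.0013), and Lyso lay above WT without passing (log2 difference 0.68 ± 0.19 (SE), adjusted p = 0.063). P4ha2, a collagen prolyl hydroxylase subunit, stood at 50.9, 26.6 and 26.2 CPM in WT, 44.9 in ITF1, 24.8 in ITM and 16.2 in Rel, 17.8, 16.1 and 18.4 in Lyso, and 73.03, 66.7 and 62.99 in Tumor. Tumor was highest, 2.03-fold over WT (log2 difference 1.02 ± 0.33 (SE), adjusted p = 0.047) and 2.36-fold over the relapsed lines (adjusted p = 0.014). Mxi1, an antagonist of MYC, stood at 59.4, 30.8 and 28.03 CPM in WT, 46.7 in ITF1, 21.96 in ITM and 27.6 in Rel, 27.9, 26.8 and 25.1 in Lyso, and 69.1, 90.8 and 92.8 in Tumor. The Tumor libraries lay above all 9 cultured ones, at 2.24 times WT (log2 difference 1.17 ± 0.30 (SE), adjusted p = 0.017) and 2.64 times the relapsed lines (adjusted p = 0.004).

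The remaining targets were not called in Tumor. P4ha1, the other collagen hydroxylase subunit, ranged from 170 to 191 CPM in Tumor and from 63.2 to 149 CPM in WT, where WT 1 was the highest (log2 difference 0.95 ± 0.33 (SE), adjusted p = 0.067). Ddit4, an inhibitor of mTORC1 that many stresses induce, ranged from 34.3 to 55.5 CPM in Tumor and from 9.28 to 60.5 CPM in WT, again with WT 1 highest (log2 difference 0.55 ± 0.67 (SE), adjusted p = 0.62). P4ha1 was above all 9 cultured libraries in every Tumor library, whereas Ddit4 overlapped with WT.

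**Figure D3:**
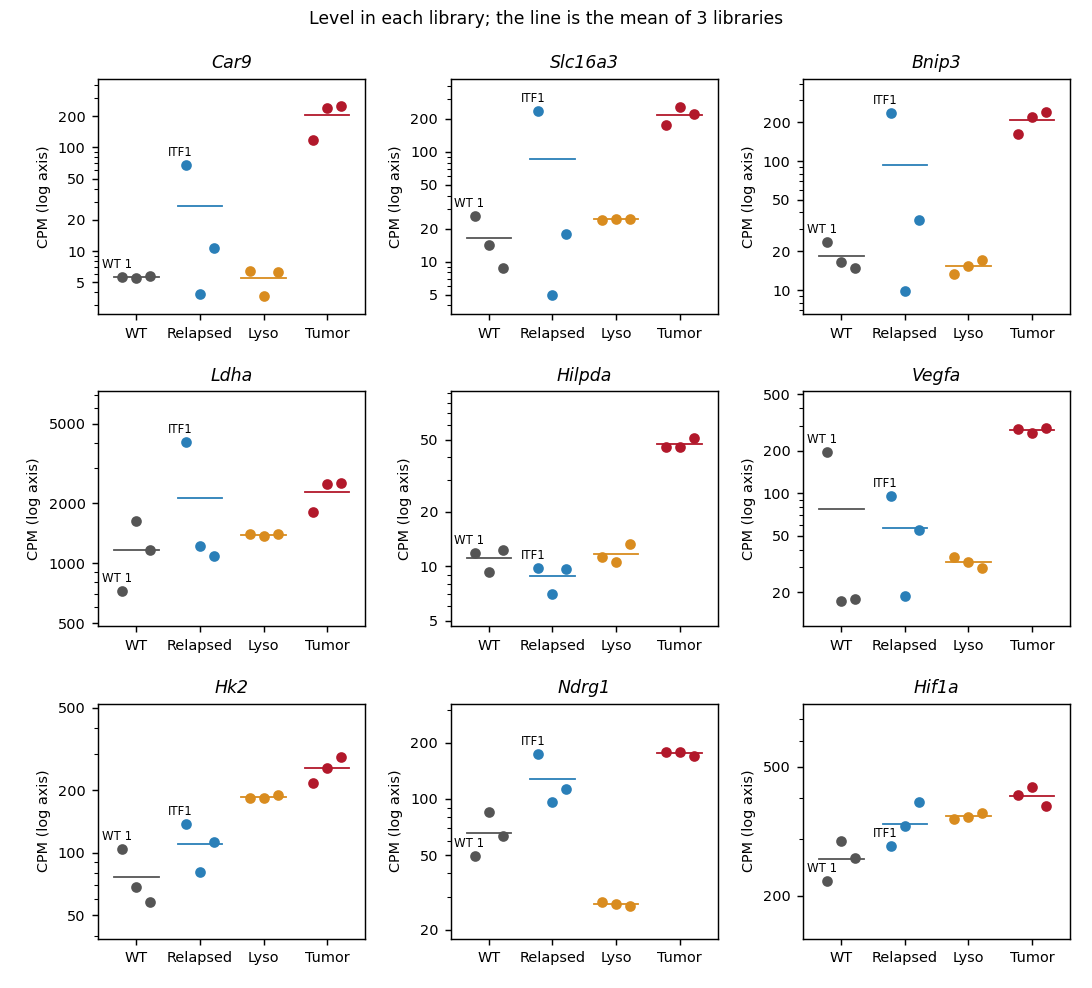
Levels of 9 genes in each library (CPM, log axis), by group, with a line at the mean of the 3 libraries. ITF1 reaches the Tumor levels of Slc16a3 and Bnip3 and exceeds them for Ldha but not for Car9, Hilpda or Vegfa, and the Lyso libraries are lowest for Ndrg1.

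The 3 Tumor libraries were not equal in these genes. Tumor 1 was the lowest of them for 27 of the 39 (69.2%), against 37.5% of all tested genes. Car9 stood at 118 CPM there, below both others but above all cultured libraries. Tumor 1 was not the lowest for Vegfa, Adm, Ndrg1, P4ha1, P4ha2, Ddit4, Egln3, Hif1a, Epas1, Slc2a3, Pfkfb3 and Hilpda.

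Whether the tumor pattern stays in lines grown from recurrent tumors was asked by comparing ITF1, ITM and Rel with WT. As a group they gave 0 calls among the 39 genes in edgeR's test in either direction, where 0.0134% of all tested genes were higher and 0.0268% lower. At an unadjusted p under 0.05, 20 of the 39 were higher and 2 lower, against 11% of all tested genes in either direction. DESeq2 called Aldoc, Kdm3a and Ndrg1 higher and Slc2a3 lower, and edgeR without a filter on low counts called 15 higher. Without ITM, 10 were higher and 1 lower. All 3 lines lay above all 3 WT libraries for 5 genes, against 6.43% of all tested genes, and below for 1, against 4.19%.

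The group mean hides lines that differed from each other. ITF1, singled out here after its values were seen, was the highest of the 3 lines for 35 of the 39 genes (89.7%, against 35.4% of all tested genes), and at least 2 times each of the other lines for 15 (38.5%, against 4.68%). It lay above all 3 WT libraries for 31 genes, against 26.6% of all tested genes. Rel did so for 20 genes, against 27.4%, and ITM for 6, against 21.7%. ITM was the lowest of the 3 lines for 31 genes, against 38.2%. It was below all 3 WT libraries for 16 genes (41%, against 19% of all tested genes), among them Slc16a3, Bnip3, Pdk1, Car9 and Adm.

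In ITF1 the level of Slc16a3 was 20.8 times the mean of ITM and Rel, that of Bnip3 10.5 times, that of Car9 9.30 times and that of Ldha 3.49 times. Across the 39 genes, the log2 difference of ITF1 from ITM and Rel and that of Tumor from WT, which share no library, had a Pearson r of 0.745 and a Spearman rho of 0.6, against -0.0095 and -0.029 over all 14924 tested genes. These values describe the genes, whose levels are not independent of each other, and ITF1 is 1 library of 1 line.

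ITF1 and Tumor also differed. ITF1 exceeded all 3 Tumor libraries for 11 genes (28.2%), a smaller share than over all tested genes (36.3%). These were Pfkm, Aldoc, Gapdh, Pgk1, Pgam1, Eno1, Eno2, Pkm, Ldha, Epas1 and Ddit4, which include all 6 genes of lower glycolysis. Every Tumor library exceeded every cultured library, ITF1 included, for 11 others (28.2%, against 11.4%): Slc2a1, Hk1, Hk2, Pfkp, Vegfa, Adm, Car9, P4ha1, P4ha2, Hilpda and Mxi1. With ITF1 set aside that count was 28 (71.8%, against 12.6%). Hilpda was the clearest case, at 0.879 times the WT mean in ITF1 and 4.24 times in Tumor.

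**Figure D4:**
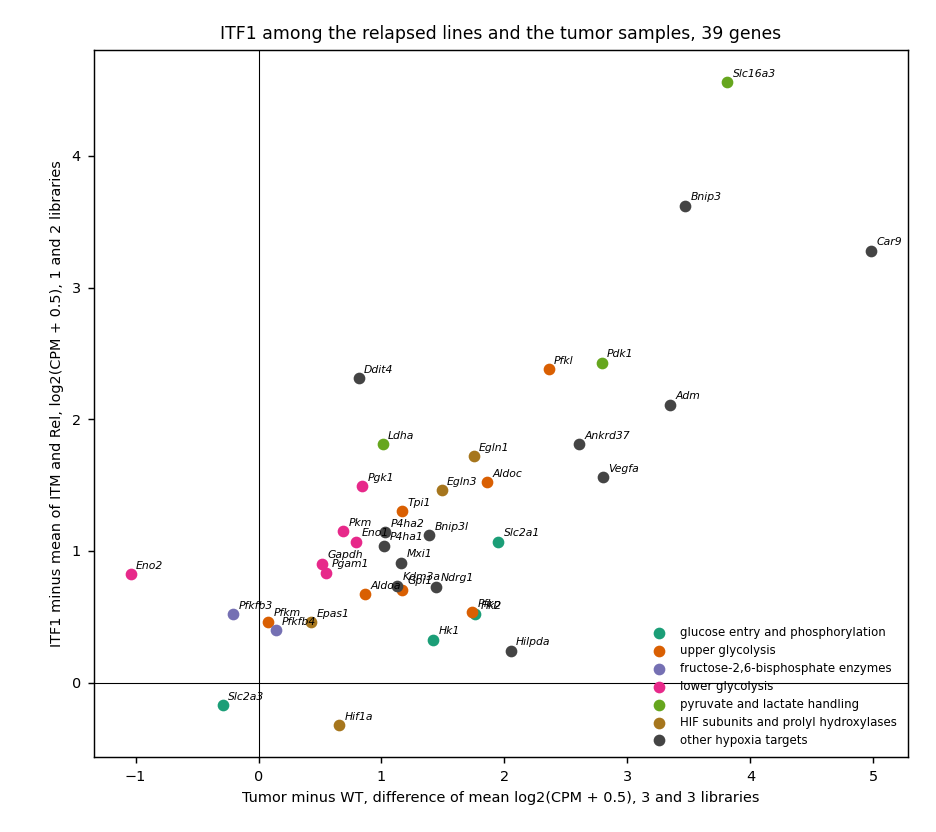
Each point is 1 of the 39 genes, by role: the x axis is the difference of Tumor from WT and the y axis that of ITF1 from the mean of ITM and Rel, both in log2(CPM + 0.5). Most points lie in the upper right part, Hilpda and Hk1 are low on the y axis for their place on the x axis, and Ldha and Ddit4 are high.

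The same lines served as the reference for Tumor. Against the 3 relapsed lines, 11 of the 39 genes were higher in Tumor (28.2%, against 11.8% of all tested genes) and 0 lower (7.74% of all), with 17 higher and 1 lower at an unadjusted p under 0.05 (32.7% of all in either direction) and 11 and 0 by DESeq2. The 11 called genes were Slc2a1, Hk1, Hk2, Gpi1, Pfkp, Vegfa, Adm, Car9, P4ha2, Hilpda and Mxi1. Without ITF1 the count of calls was 27, and without Tumor 3 or without Tumor 4 it was 7, while 1 gene was lower without ITM. Among the 11 called, Adm was also lost without Rel or any 1 Tumor library, and Vegfa and Gpi1 without ITM, without Rel or without any 1 Lyso library, and Vegfa without Tumor 1. Hk1, Hk2, Hilpda and Mxi1 were called in all 20 settings run. The Tumor libraries lay wholly above the relapsed lines for 11 genes, against 20.1% of all tested genes, with P4ha1 among them and Gpi1 not.

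Lyso was compared with WT, where incubation with T cell granules cannot be told apart from the plate surface, which is not described for WT. Of the 39 genes, 1, Hk2, was higher (3.5% of all tested genes were) and 1, Ndrg1, was lower (1.21% of all were), both given above and both called in all 24 settings run. T cell markers (12 genes) summed to 14.8 to 17.3 CPM in Lyso and to 1.27 to 6.78 CPM in WT, and immediate-early genes to 531 to 604 CPM against 293 to 392 CPM, and their part in these differences was not tested. At an unadjusted p under 0.05 there were 5 higher and 3 lower, against 18.7% of all tested genes in either direction. The count of higher genes was 2 without WT 1 or without ITF1 and 3 without ITM, and that of lower genes was 2 without ITF1. The median log2 difference of the 39 was 0.11, against -0.0048 over all genes tested. The Lyso libraries lay wholly above WT for 7 of the 39 genes, against 15.8% of all tested genes, and wholly below for 7 of the 39, against 11.6%. Such separation was common among all tested genes, so the names that follow are a listing and not a result about the set. Above were Hk2, Pfkp, Aldoc, Pfkfb4, Eno2, Hif1a and Kdm3a, and below Slc2a3, Egln1, Egln3, Bnip3l, Ndrg1, P4ha2 and Mxi1. Several hypoxia targets that rose most in Tumor did not pass the test in Lyso, among them Car9 (log2 difference -0.05 ± 0.94), Pdk1 (-0.09 ± 0.64) and Bnip3 (-0.19 ± 0.85), where the standard errors are large.

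The Lyso libraries agreed closely with each other. The coefficient of variation over the 3 libraries had a median of 4.20% across the 39 genes, against 8.62% over all tested genes. In WT it was 19.2% against 21.7%, in the relapsed lines 47.2% against 18.3%, and in Tumor 15.1% against 12.1%. Across genes, Lyso 2 and Lyso 3 differed little beyond counting noise, with a chi-square per degree of freedom of 1.55. Lyso 1 differed more from both, at 12.1 and 11.75. The labels do not say whether the Lyso libraries came from separate cultures. Pgk1 varied more, with 285 CPM in Lyso 1 against 399 and 407 CPM in Lyso 2 and 3.

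Against the relapsed lines, 4 genes were lower in Lyso (2.81% of all tested genes were) and 0 higher (4.87% of all), with 13 lower and 3 higher at an unadjusted p under 0.05 (22.3% of all in either direction) and 7 lower and 2 higher by DESeq2. The 4 were Ndrg1 (log2 difference -2.21 ± 0.21 (SE), adjusted p = 8.3e-05), Bnip3l (adjusted p = 0.022), Ankrd37 (adjusted p = 0.034) and Egln3 (adjusted p = 0.042). Without ITF1 the count was 2, it was 1 without any 1 of the Lyso libraries, 2 without Tumor 3, and 14 without ITM. The count of higher genes was 2 without WT 1 or without ITF1, and 1 without WT 3 or without ITM. Egln3 was also lost without WT 2, WT 3 or any 1 Tumor library. Ndrg1 was called in all 20 settings run.

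Tumor against Lyso gave 21 genes higher (53.8%, against 14.2% of all tested genes) and 1, Eno2, lower (10.5% of all). Of these 22, 17 were called in all 22 settings run. Of the others, Eno1 was lost without WT 2, WT 3 or any 1 Tumor or Lyso library, Slc16a3 without any 1 Tumor or Lyso library, Tpi1 without Tumor 3, Tumor 4 or any 1 Lyso library, and Vegfa without Lyso 3. The median log2 difference was 0.99, against 0.0036 over all genes. Hk2, Hif1a, Aldoa, Aldoc and Kdm3a, which rose in Tumor against WT, were not called here.

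Genes of related function shifted in their shares, computed from CPM per kilobase of transcript. Slc2a1 made up 63.6% ± 3.45 (SD, n = 3) of the summed Slc2a1 and Slc2a3 level in WT and 89.2% ± 1.95 in Tumor. Pfkl made up 36.7% ± 7.13 of the phosphofructokinase level in WT and 55.0% ± 2.29 in Tumor, and Pfkm fell from 24.7% ± 3.24 to 7.70% ± 1.12. Bnip3 went from 40.2% ± 5.03 to 74.4% ± 2.05 of the sum with Bnip3l. In each of these the libraries of WT and Tumor did not overlap.

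In Lyso the hexokinases differed from WT, with Hk2 at 54.2% ± 1.37 of the sum with Hk1 against 33.1% ± 16.1 in WT, where WT 1 reached 51.6%. Slc2a1 in Lyso, at 69.6% to 73.6%, also lay above its WT range of 59.9% to 66.8%. Pfkm, at 17.5% to 19.5%, lay below its WT range of 22.8% to 28.4%. P4ha1 made up 76.5% ± 2.25 of the sum with P4ha2 in Lyso and 60.4% ± 2.82 in WT. These shares depend on the transcript length used, and with the length of all exons the Hk2 share was 68.6% in Lyso and 46.4% in WT. They were not tested.

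**Figure D5:**
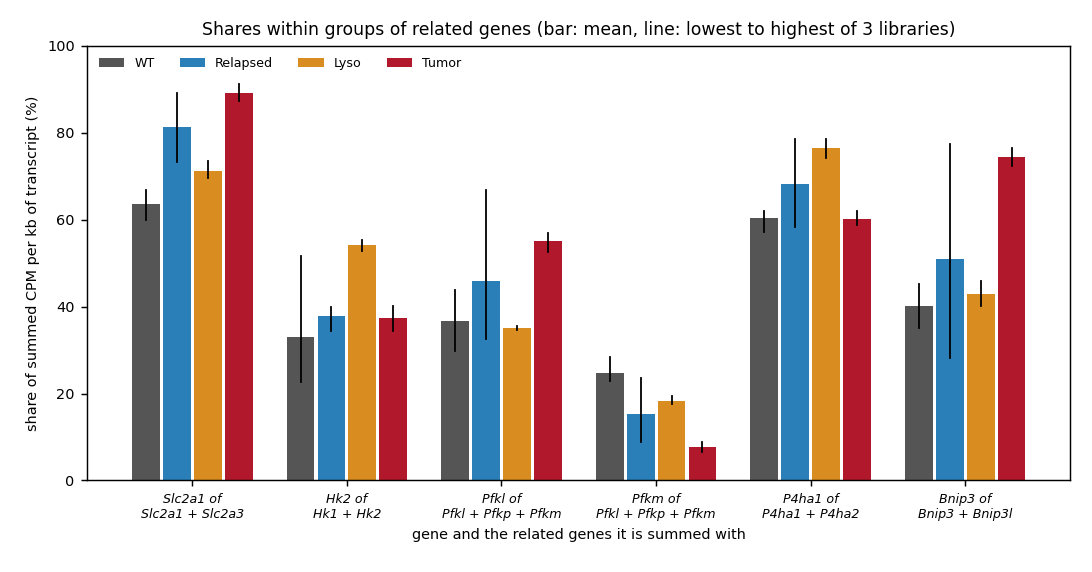
Share of 1 gene in the summed level of related genes (%, from CPM per kilobase of transcript), as the mean of 3 libraries (bar) with the lowest and highest library (line), by group. Slc2a1, Pfkl and Bnip3 take their largest shares in Tumor, and Hk2 and P4ha1 in Lyso.

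On the same scale, Aldoa (950 CPM per kilobase), Gapdh (914), Pkm (792) and Ldha (662) had the highest mean levels of the set in WT, and Adm (1.62), Pfkfb4 (1.31), Egln3 (0.769) and Ankrd37 (0.524) the lowest. Car9 went from 2.79 CPM per kilobase in WT to 100 in Tumor, and Slc16a3 from 3.78 to 50.4.

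Other genes of the pathways were examined as lists of 103 genes, 87 of which were tested. In Tumor against WT 29 of the 87 were higher (33.3%, against 12.1% of all tested genes) and 5 lower. Of 37 further hypoxia targets 20 were higher and 0 lower, with a median log2 difference of 1.34, while of 18 further glycolysis genes 2 were higher and 4 lower, with a median of -0.18. Among 16 pyruvate and lactate genes 2 were higher, among 10 oxygen-sensing genes 2, and among 6 regulators of the MYC and glucose-response kind 3 were higher and 1 lower. Lox, Nos2, Stc2 and Tmem45a of the further targets had 0 counts in every WT library, as had the regulator Arrdc4. Such genes passed the low-count filter only through Tumor, so their direction was set beforehand. The tested lists hold them, and the counts above are therefore a description only.

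The 6 of smallest adjusted p were Dusp1, Errfi1, Maff, Angptl4, Bhlhe40 and Pgf. Dusp1, a phosphatase of MAP kinases and itself an immediate-early gene, ranged from 14.8 to 16.3 CPM in WT and from 152 to 190.4 CPM in Tumor (log2 difference 3.40 ± 0.14 (SE), adjusted p = 1.3e-08). Errfi1, a feedback inhibitor of the EGF receptor, ranged from 18.97 to 22.04 CPM in WT and from 86.2 to 106 CPM in Tumor (log2 difference 2.19 ± 0.13 (SE), adjusted p = 2.0e-07). Bhlhe40, a transcriptional repressor of the clock and hypoxia pathways, ranged from 38.4 to 97.8 CPM in WT and from 335 to 422 CPM in Tumor (log2 difference 2.34 ± 0.25 (SE), adjusted p = 3.6e-05). The immediate-early sum given above moved with these genes, and its part in them was not tested.

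Pgf, a relative of Vegfa, ranged from 1.13 to 2.53 CPM in WT and from 13.3 to 19.1 CPM in Tumor (log2 difference 3.29 ± 0.35 (SE), adjusted p = 4.3e-05). Angptl4, a secreted inhibitor of lipoprotein lipase, had 0, 0 and 4 counts in WT and 14.1 to 39.6 CPM in Tumor. It reached at most 0.282 CPM in the cultured libraries and so passed the low-count filter only through Tumor. Its direction was set beforehand, and its place among the genes of smallest adjusted p is a description only. Maff, a small MAF factor, stood at 5.06 to 6.78 CPM in WT and rose both in Tumor, to 42.2 to 66.8 CPM (log2 difference 3.29 ± 0.22 (SE), adjusted p = 5.7e-07), and in Lyso, to 24.2 to 26.4 CPM (log2 difference 2.19 ± 0.21 (SE), adjusted p = 0.00019).

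In Lyso against WT 3 of the 87 were higher (3.45%), a share near the 3.5% of all tested genes. Besides Maff these were Txnip, a thioredoxin-binding protein that restrains glucose uptake and responds to glucose, at 137 to 161 CPM against 35.04 to 41.3 CPM in WT (log2 difference 1.998 ± 0.29 (SE), adjusted p = 0.0016), and Bhlhe40 (log2 difference 1.06 ± 0.24 (SE), adjusted p = 0.023).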

How the data were processed

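RNA-seq reads of 12 libraries were trimmed by the authors with fastp 0.19.6, aligned to GRCm38 with STAR 2.7.1a and deposited as raw counts per gene, without normalization. The strand setting and annotation release are not given in the sources used here. Symbols came from GENCODE M21, which matched 54165 of 54232 identifiers, and 25258 genes had no count. Reads at several places in the genome are not counted, which lowers the counts of genes with close copies.

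Counts were tested with edgeR 4.0.16 (R 4.3.3; TMM, filterByExpr by group, glmQLFit and glmQLFTest, 1 fit of 12 libraries), with DESeq2 1.42.0 as an alternative. Each standard error was obtained by dividing the log2 difference by the root of its F statistic. Similar genes were found with BLAST 2.17.0. The procedure was tested on simulated data. Members and lists were chosen with earlier results of these data known. Every library's value is given for members called in the comparisons with WT or of Tumor with the relapsed lines and for Hif1a, Epas1, Vegfa, Car9, Slc2a1 and Ldha, the rest by ranges, and up to 6 called genes of the other pathway lists by smallest adjusted p. One such gene of Lyso against WT is not reported here. A second Aldoa identifier, with at most 11 counts a library, was left out. Alternatives covered normalization, filters, the samples fitted, call rules and each library left out.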

Additional observations from a re-analysis of the deposited data

Results flagged for a closer look

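Ndrg1 moved in opposite directions against WT in the 2 groups, higher in every Tumor library and lower in every Lyso library. The difference between Tumor and Lyso was 2.67 on the log2 scale (edgeR's quasi-likelihood test, adjusted p = 3.2e-06).

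The share of reads mapped to several places, which the gene counts leave out, was 13.58% to 14.91% in the Lyso libraries and 11.35% to 12.74% in the 9 others. Its part in the differences of Lyso was not tested.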

How the results depend on the processing

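No result of the 39 genes changed its direction past the threshold under the alternatives run. For Tumor against WT, higher genes numbered 24, and 15 with WT 1 and WT 2 or with WT 3 as the WT libraries (15 to 31 with 1 library left out). Lower genes numbered 0, and 1 with DESeq2, with library size only, without a low-count filter and with only the compared groups (0 to 1). For Lyso against WT, 1 was higher, and 3 with DESeq2, 4 without the filter, 4 with only the compared groups and 3 without WT 1 and ITF1 (1 to 3), while 1 was lower, and 3 without the filter and 4 without WT 1 and ITF1 (1 to 2). For the relapsed lines against WT, 0 were higher, and 3 with DESeq2, 15 without the filter and 2 without WT 1 and ITF1 (0 to 10), while 0 were lower, and 1 with DESeq2 and 1 without WT 1 and ITF1 (0 to 1). For Tumor against the relapsed lines, 11 were higher, and 18 without the filter, 7 with only the compared groups, 5 when tested against a log2 change of 0.5 and 31 without WT 1 and ITF1 (7 to 27), while 0 were lower, and 1 without the filter (0 to 1). For Lyso against the relapsed lines, 0 were higher, and 2 with DESeq2, 1 with DESeq2's size factors in edgeR, 2 without the filter and 3 without WT 1 and ITF1 (0 to 2), while 4 were lower, and 7 with DESeq2, 16 without the filter, 2 with at least 10 counts in every library, 1 with only the compared groups, 1 against a log2 change of 0.5 and 2 without WT 1 and ITF1 (1 to 14). For Tumor against Lyso, 21 were higher, and 33 with only the compared groups. The causes were not tested. Leaving out WT 1 and ITF1 together was chosen after seeing the data.

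Same-numbered libraries showed no clear pairing, with 0 of 7 pairs correlated above 0.1 (-0.0151 to 0.1). The highest was WT 1 with Tumor 1 at 0.1, while WT 2 with Tumor 3, of unlike numbers, reached 0.0974. With 3 libraries a group this check cannot exclude pairing. A fit of WT, Lyso and Tumor with the replicate block called 27 higher and 1 lower in Tumor against WT, 3 and 2 in Lyso against WT, and 22 and 1 in Tumor against Lyso. The same fit with no replicate block, also added after seeing the data, called 31 and 1, 5 and 4, and 28 and 1. The low depth of WT 1 and WT 2 limits scarce genes most, Ankrd37, Adm and Egln3 among them.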
